A study of Mus musculus with 6 samples.

Results

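The transporters that carry bile acids and phospholipids through the hepatocyte were followed as 10 genes chosen by name from a read count table of 24489 gene entries: Slc10a1 for uptake, Abcb11, Abcb4, Atp8b1, Abcc2 and Abcg2 for export into bile, and Abcc3, Abcc4, Slc51a and Slc51b for export back to blood. All 10 had 1 entry each, 9 passed the filter on low counts, and Slc51a was listed at 0 reads in every library. Polyadenylated RNA had been sequenced from 1 lobe of the liver of mouse pups at postnatal day 10, all on a mixed C3H/C57bl6J background, with 3 libraries of the genotype Jag1+/+ and 3 of Jag1Ndr/Ndr. The pups of the latter genotype are homozygous for Nodder (Ndr), a missense allele of the Notch ligand Jag1, and the mice serve as a model of Alagille syndrome, a human disorder with few intrahepatic bile ducts and poor bile flow. The allele is inherited and acts in every cell that expresses Jag1, so the libraries do not part effects within hepatocytes from effects of the ducts around them. No label says whether the libraries come from separate animals. Each genotype held libraries of both sexes and so more than 1 animal, but part of the spread that the p-values measure may be technical.

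Bile acids made in the hepatocyte, or taken back from portal blood at its sinusoidal side, are pumped across the canalicular membrane into bile, and this pumping drives bile flow. Phospholipid moved across the same membrane coats the bile acids and shields duct cells from them, and in people loss of ABCB11, ABCB4 or ATP8B1 causes inherited cholestasis. When bile cannot leave, hepatocytes are known to send bile acids back to blood through basolateral pumps, and the bile acid receptor FXR, encoded by Nr1h4, is known to raise transcription of ABCB11, ABCB4 and the subunits of the basolateral exchanger OST alpha and beta.

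Promoters of the members whose transcripts changed, with that of Abcb11 beside them, are shown because the receptors known to act on these genes bind variants of the hexamer AGGTCA. Each window runs from 250 bases before to 50 bases after a RefSeq start site on GRCm38.p6, 5′ to 3′ on the strand of the gene, and capitals mark that hexamer, which reads TGACCT where it lies on the other strand.
Slc51b (chr9:65422724-65423023, minus strand): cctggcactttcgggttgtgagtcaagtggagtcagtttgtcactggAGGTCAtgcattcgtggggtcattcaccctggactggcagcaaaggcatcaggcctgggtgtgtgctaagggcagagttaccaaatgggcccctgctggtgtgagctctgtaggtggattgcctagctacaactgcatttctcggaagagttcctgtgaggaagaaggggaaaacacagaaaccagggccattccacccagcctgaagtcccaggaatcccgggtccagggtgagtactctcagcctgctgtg
Abcb4 (chr5:8893471-8893770, plus strand): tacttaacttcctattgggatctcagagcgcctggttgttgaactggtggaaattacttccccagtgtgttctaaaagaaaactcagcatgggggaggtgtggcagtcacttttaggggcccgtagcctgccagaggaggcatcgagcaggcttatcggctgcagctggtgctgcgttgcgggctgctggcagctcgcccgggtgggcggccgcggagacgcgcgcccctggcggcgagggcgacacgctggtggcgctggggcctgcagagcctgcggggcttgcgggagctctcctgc
Abcg2, the first of 3 start sites (chr6:58584283-58584582, plus strand): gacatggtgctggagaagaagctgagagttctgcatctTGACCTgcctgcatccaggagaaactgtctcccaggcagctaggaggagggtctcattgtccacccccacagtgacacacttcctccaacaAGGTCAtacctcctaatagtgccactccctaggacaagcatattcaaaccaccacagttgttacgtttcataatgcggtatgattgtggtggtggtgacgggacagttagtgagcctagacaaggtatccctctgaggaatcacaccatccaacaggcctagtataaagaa
Abcb11 (chr2:69342567-69342866, minus strand): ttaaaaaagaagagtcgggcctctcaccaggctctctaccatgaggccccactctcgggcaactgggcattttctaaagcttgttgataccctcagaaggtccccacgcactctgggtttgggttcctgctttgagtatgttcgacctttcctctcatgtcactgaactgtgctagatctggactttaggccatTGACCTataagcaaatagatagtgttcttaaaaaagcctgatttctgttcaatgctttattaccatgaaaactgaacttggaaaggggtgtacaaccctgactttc

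The promoter table held 8 of the 10 members with 12 windows, since some genes have several start sites. The hexamer lay in 7 of these 12 windows, of 6 members, and in 16.3% of all 32851 windows of this length. It began 203 bases before the start site of Slc51b, 56 bases before that of Abcb11, and 212 and 121 bases before the first start site of Abcg2, while the window of Abcb4 held none. The window of the second Abcg2 start site held none either, and in that of the third the hexamer began 197 bases before the start. The inverted repeat of the hexamer with a spacer of 1 base (IR-1), the form FXR is known to bind, was searched for as an exact match, and the same hexamer repeated head to tail (DR-1) likewise, and neither was found in a window of these members. Such exact matches are rare, in 0.00913% and 0.0396% of all windows, and no match says only that these letters are not in these windows. The core TGACNNNGC of the antioxidant response element, bound by NRF2, lay 98 bases before the start of Abcc2 and 25 and 23 bases before the 2 start sites of Abcc4, and is found in 12.4% of all windows. A letter match describes the window and does not show that a factor binds there.

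Reads over gene entries came to between 12992592 and 59653111 per library. The smallest count of a detected member was 56, for Abcc4 in Jag1Ndr/Ndr replicate 1. Levels are given as CPM, the reads of a gene relative to those of its library, after scaling by the trimmed mean of M-values (TMM), and differences as log2 fold changes of Jag1Ndr/Ndr over Jag1+/+ with a standard error (SE) from edgeR's quasi-likelihood test, adjusted over 13819 genes by the Benjamini-Hochberg method with a threshold of 0.05. Xist and Y-linked reads showed 1 female and 2 male Jag1+/+ libraries and 2 female and 1 male Jag1Ndr/Ndr libraries. In bulk liver, fewer cells of a type and less RNA per cell cannot be told apart.

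The transporters did not all move in 1 direction. The phospholipid flippase gene Abcb4 and the basolateral exchanger gene Slc51b rose, Abcg2 fell, and the uptake gene Slc10a1 overlapped between the genotypes and did not pass. Of the 9 members tested, 2 were higher and 1 was lower in Jag1Ndr/Ndr livers, beside 4.73% and 2.9% of all genes tested. The libraries of the genotypes did not overlap for 4 members that were higher and 2 that were lower, beside 14.8% and 14.2% of all genes tested. The median log2 fold change was 0.43 over the 9 members and 0.00 over all genes. By role it was -0.17 for the 5 canalicular genes and 0.75 for the 3 basolateral genes detected.

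**Figure D1:**
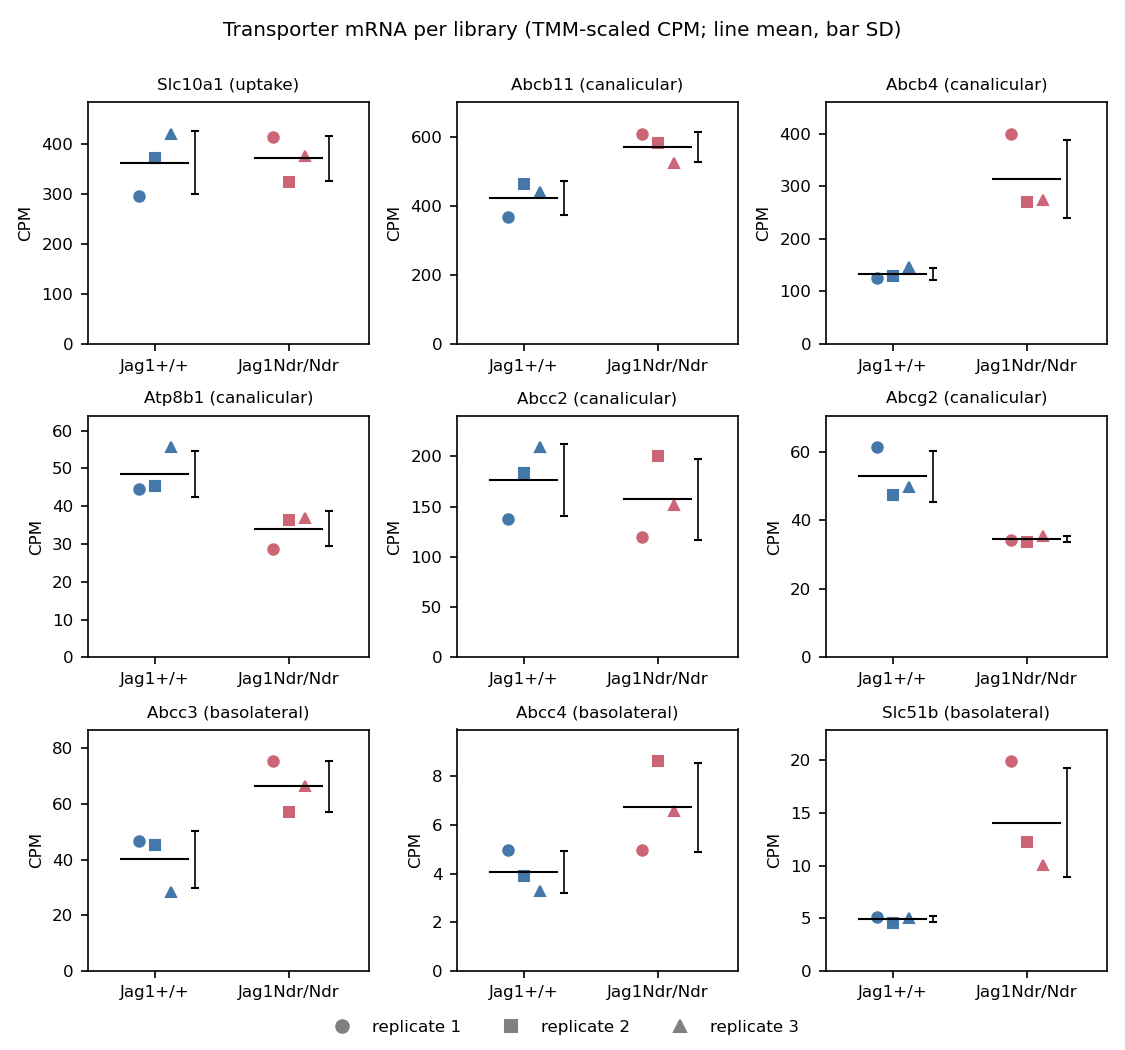
CPM of the 9 detected transporters in each library (vertical axes from 0), by genotype; marker shapes give the replicate number, lines the mean and bars the SD of 3 libraries. Abcb4, Slc51b, Abcb11 and Abcc3 lie higher in each Jag1Ndr/Ndr library than in any Jag1+/+ library, Atp8b1 and Abcg2 lie lower, and Slc10a1, Abcc2 and Abcc4 overlap.

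Slc10a1 encodes the sodium-dependent carrier NTCP, which takes conjugated bile acids up from portal blood (chromosome 12, positions 80953185 to 80968705 of GRCm38.p6). It measured 296, 372 and 420 CPM in Jag1+/+ replicates 1, 2 and 3 and 413, 324 and 376 CPM in Jag1Ndr/Ndr replicates 1, 2 and 3. The ranges of the genotypes coincided almost wholly, and the log2 fold change of 0.03 ± 0.20 did not pass (edgeR adjusted p = 0.948). Its sign turned without Jag1+/+ replicate 1 (-0.10) and without Jag1Ndr/Ndr replicate 1 (-0.06). Its closest ileal relative, Slc10a2, the apical bile acid carrier of ileum and bile duct cells, did not pass the filter on low counts and reached at most 0.129 CPM in a library.

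Abcb11 encodes the bile salt export pump BSEP (chromosome 2, positions 69238282 to 69342616). It measured 367, 464 and 439 CPM in the Jag1+/+ replicates 1, 2 and 3 and 609, 582 and 525 CPM in the Jag1Ndr/Ndr replicates 1, 2 and 3. Each Jag1Ndr/Ndr library lay above each Jag1+/+ library, yet the log2 fold change of 0.43 ± 0.18 did not pass (edgeR adjusted p = 0.193). The adjusted p lay between 0.065 and 0.465 under the 17 other settings tried. Of its 5146 annotated exonic bases, 136 are shared with the antisense gene Gm13613 and 19 with the pseudogene Gm13614, whose reads cannot be told apart without strand.

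Abcb4 encodes the flippase MDR2, which presents phosphatidylcholine to bile (chromosome 5, positions 8893614 to 8959226). It measured 126, 129 and 147 CPM in Jag1+/+ replicates 1, 2 and 3, and 400, 269 and 273 CPM in Jag1Ndr/Ndr replicates 1, 2 and 3. The lowest Jag1Ndr/Ndr library stood well clear of the highest Jag1+/+ library. Means were 134 ± 11.2 and 314 ± 74.2 CPM (SD, n = 3 per genotype), a rise of 2.35-fold (log2 fold change 1.23 ± 0.21, edgeR adjusted p = 0.0122). The call was lost without Jag1+/+ replicate 1, 2 or 3 (edgeR adjusted p = 0.0656, 0.0802 and 0.0568), with log2 fold changes of 1.18, 1.20 and 1.30. Whether the 1 female Jag1+/+ library is set against the 2 female Jag1Ndr/Ndr libraries, or the 2 male Jag1+/+ libraries against the male Jag1Ndr/Ndr library, the log2 difference was positive, at 1.11 and 1.54.

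Atp8b1 encodes FIC1, a flippase that returns phosphatidylserine to the inner leaflet of the canalicular membrane (chromosome 18, positions 64528979 to 64661272). It measured 44.6, 45.4 and 55.6 CPM in Jag1+/+ replicates 1, 2 and 3 and 28.7, 36.4 and 37.0 CPM in Jag1Ndr/Ndr replicates 1, 2 and 3. The genotypes did not overlap. The log2 fold change was -0.51 ± 0.16, short of the threshold (edgeR adjusted p = 0.101). Tmem30a, which encodes the CDC50A subunit that Atp8b1 needs to leave the endoplasmic reticulum, measured 183, 151 and 184 CPM in Jag1+/+ replicates 1, 2 and 3 and 100.6, 99.6 and 132 CPM in Jag1Ndr/Ndr replicates 1, 2 and 3. These did not overlap either. Its log2 fold change of -0.64 ± 0.18 did not pass in edgeR (adjusted p = 0.0673), though it did in DESeq2 (adjusted p = 0.01) and with a block for the replicate number (edgeR adjusted p = 0.0477).

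Abcc2 encodes MRP2, which exports bilirubin glucuronides and other conjugates into bile (chromosome 19, positions 43782308 to 43838332). It measured 138, 183 and 209 CPM in Jag1+/+ replicates 1, 2 and 3 and 120, 200 and 151 CPM in Jag1Ndr/Ndr replicates 1, 2 and 3. The genotypes overlapped widely, and the log2 fold change of -0.17 ± 0.24 did not pass (edgeR adjusted p = 0.743). Limma on the deposited RPKM gave a positive sign, at 0.065 and 0.061 with pseudocounts of 1 and 0.1.

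Abcg2 encodes BCRP, an exporter of sulphated steroids, urate and porphyrins (chromosome 6, positions 58584491 to 58692451). It measured 61.2, 47.3 and 49.7 CPM in Jag1+/+ replicates 1, 2 and 3 and 34.2, 33.7 and 35.4 CPM in Jag1Ndr/Ndr replicates 1, 2 and 3. The Jag1Ndr/Ndr libraries lay within a narrow band below every Jag1+/+ library, and the means of 52.8 ± 7.42 and 34.4 ± 0.849 CPM (SD, n = 3 per genotype) gave a fall of 1.53-fold (log2 fold change -0.61 ± 0.15, edgeR adjusted p = 0.0425). Of the 3 transporter calls this was the closest to the threshold, and it was lost without any 1 of the libraries, the edgeR adjusted p being 0.153, 0.101 and 0.134 when Jag1+/+ replicate 1, 2 or 3 was left out and 0.0519, 0.0808 and 0.087 when Jag1Ndr/Ndr replicate 1, 2 or 3 was. It was also lost with sex as a covariate, with library totals alone, in the deposited RPKM and with limma-voom quality weights, where its log2 fold change lay between -0.67 and -0.34. In mice Abcg2 is also expressed by erythroid cells, whose 7 matched markers summed to between 139 and 304 CPM in Jag1+/+ and between 251 and 672 CPM in Jag1Ndr/Ndr libraries, with 2 of 6 tested past the threshold, both higher, and Hba-a1 at 0. Their part in the value of Abcg2 was not tested.

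Abcc3 encodes MRP3, a basolateral exporter of glucuronides and bile acids (chromosome 11, positions 94343295 to 94393017). It measured 46.6, 45.2 and 28.3 CPM in Jag1+/+ replicates 1, 2 and 3 and 75.4, 57.1 and 66.6 CPM in Jag1Ndr/Ndr replicates 1, 2 and 3. The genotypes did not overlap, but the log2 fold change of 0.73 ± 0.22 did not pass (edgeR adjusted p = 0.0821). DESeq2 alone among the 17 other settings called it (adjusted p = 0.027).

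Abcc4 encodes MRP4, which exports bile acids together with glutathione and is scarce in healthy liver (chromosome 14, positions 118482692 to 118707856). It measured 4.98, 3.90 and 3.28 CPM in Jag1+/+ replicates 1, 2 and 3 and 4.96, 8.63 and 6.56 CPM in Jag1Ndr/Ndr replicates 1, 2 and 3. Jag1Ndr/Ndr replicate 1 lay at the level of Jag1+/+ replicate 1, and the other Jag1Ndr/Ndr libraries lay above. The log2 fold change of 0.75 ± 0.28 did not pass (edgeR adjusted p = 0.146), and limma-voom with quality weights alone called it (adjusted p = 0.0401). Platelets also carry this transporter, and the 7 megakaryocyte and platelet markers, none of which passed over all genes although 4 were higher at an unadjusted p under 0.05 in edgeR, summed to between 23.2 and 68.0 CPM in Jag1+/+ and between 62.9 and 127 CPM in Jag1Ndr/Ndr libraries. Their part in the value of Abcc4 was not tested.

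Slc51b encodes the beta subunit of the OST exchanger, which lets bile acids leave the cell by facilitated diffusion (chromosome 9, positions 65412753 to 65422773). It measured 5.15, 4.58 and 5.06 CPM in Jag1+/+ replicates 1, 2 and 3, from 89, 141 and 196 reads, and 19.9, 12.2 and 10.1 CPM in Jag1Ndr/Ndr replicates 1, 2 and 3, from 225, 872 and 189 reads. The Jag1+/+ libraries were nearly equal, and each Jag1Ndr/Ndr library stood above all of them, replicate 1 most of all. Means of 4.93 ± 0.311 and 14.1 ± 5.19 CPM (SD, n = 3 per genotype) gave a rise of 2.84-fold, the largest among the members (log2 fold change 1.50 ± 0.27, edgeR adjusted p = 0.0151). The call was lost without Jag1+/+ replicate 1, 2 or 3 (edgeR adjusted p = 0.0656, 0.0808 and 0.0696), with log2 fold changes of 1.53, 1.45 and 1.52. Within females and within males the log2 difference was 1.11 and 2.05. The gene shares 91 of its 709 annotated exonic bases with Rasl12 on the other strand, which measured 0.478 ± 0.0509 and 0.543 ± 0.196 CPM (SD, n = 3 per genotype).

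Slc51a, the alpha subunit, was listed at 0 reads in all 6 libraries (chromosome 16, positions 32475578 to 32487879). A count of 0 allows up to 3 reads, or between 0.0421 and 0.266 CPM per library, for counting error only. In total 6071 entries, 24.8% of all, had no read, among them the alpha globin genes Hba-a1 and Hba-a2, near-identical copies whose transcripts erythroid cells hold in plenty, so an entry at 0 need not mean an absent transcript. Slc51a shares 567 of its 3198 annotated exonic bases with Pcyt1a, and the sources used here do not say how reads over overlapping genes were counted. A ratio of the subunits therefore had no value.

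Levels of different genes were set side by side per length, as CPM per kilobase (RPKM) on the TMM-scaled totals. The lengths are those behind the deposited RPKM and differ from the annotated exonic bases given above. For Slc51b in Jag1+/+, means of 4.93 CPM and 12.7 RPKM imply a length shorter than its 709 annotated exonic bases. The order and ranks of genes therefore depend on these lengths. In Jag1+/+ livers the order was Slc10a1 with 228 ± 43.0 RPKM, Abcb11 with 88.7 ± 10.8, Abcc2 and Abcb4 with 33.6 ± 6.86 and 33.6 ± 2.79, Abcg2 with 21.7 ± 2.99, Slc51b with 12.7 ± 0.754, Abcc3 with 8.22 ± 2.10, Atp8b1 with 7.73 ± 0.957 and Abcc4 with 0.756 ± 0.157 RPKM (mean ± SD, n = 3). Abcc2 and Abcb4, and Abcc3 and Atp8b1, did not differ beyond their spread there and changed places between libraries. In Jag1Ndr/Ndr livers Abcb4 stood alone in the third place with 79.5 ± 18.8 RPKM, above Abcc2 with 30.0 ± 7.58 in every library. Slc51b followed with 36.6 ± 13.5 RPKM, above Abcc2 in replicate 1 and below it in replicates 2 and 3, so that these neighbours did not part. Abcg2 with 14.3 ± 0.473 and Abcc3 with 13.7 ± 1.95 RPKM did not differ beyond their spread either. Among the 13819 genes tested, ranked by mean RPKM, Slc10a1 was number 207 in Jag1+/+ and 192 in Jag1Ndr/Ndr livers, Abcb11 571 and 376, Abcb4 1483 and 613, and Slc51b 3673 and 1382.

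Ratios of a pair of transporters within a library do not depend on how libraries are scaled. Abcb4 RPKM over Abcb11 RPKM was 0.411, 0.334 and 0.401 in Jag1+/+ replicates 1, 2 and 3 and 0.788, 0.556 and 0.625 in Jag1Ndr/Ndr replicates 1, 2 and 3, so that the phospholipid flippase transcript was more abundant relative to that of the bile salt pump in each Jag1Ndr/Ndr library. The log2 ratio differed by 0.77 between the genotypes, with an SD between libraries of 0.16 in Jag1+/+ and 0.26 in Jag1Ndr/Ndr. Atp8b1 over Abcb11 was 0.0925, 0.0745 and 0.0961 in Jag1+/+ replicates 1, 2 and 3 and 0.0359, 0.0475 and 0.0536 in Jag1Ndr/Ndr replicates 1, 2 and 3. Here each Jag1Ndr/Ndr library was lower, with a difference of the log2 ratio of -0.95 and SDs of 0.20 and 0.30. Abcc3 over Abcc2, the basolateral over the canalicular conjugate pump, was 0.364, 0.266 and 0.146 in Jag1+/+ replicates 1, 2 and 3 and 0.679, 0.307 and 0.474 in Jag1Ndr/Ndr replicates 1, 2 and 3. The genotypes overlapped. Abcc4 over Slc10a1 overlapped too, at 0.0035 ± 0.00143 and 0.00556 ± 0.00193 (mean ± SD, n = 3). No p-value is given for these ratios, since an exact permutation test of 3 against 3 libraries cannot go below 0.1.

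**Figure D2:**
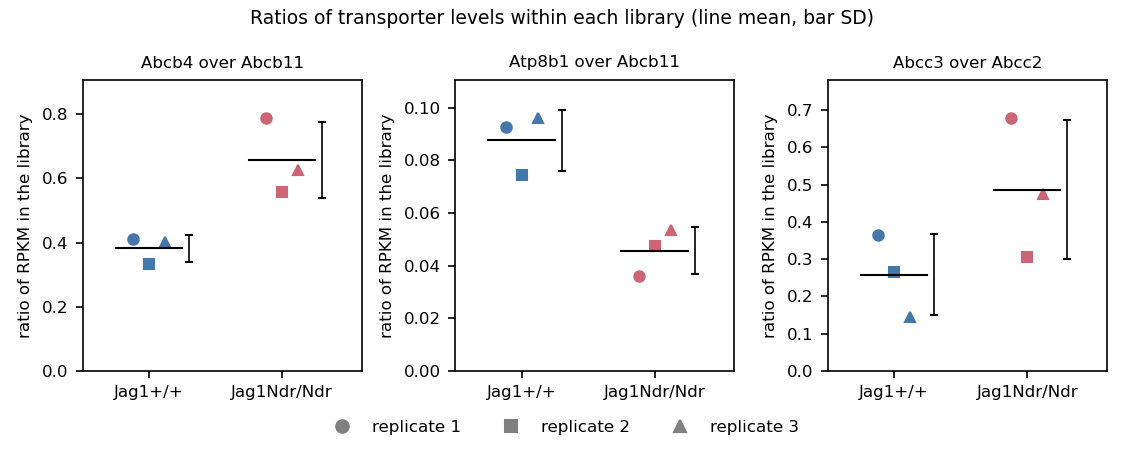
Ratio of the RPKM of a pair of transporters within each library (vertical axes from 0), by genotype; marker shapes give the replicate number, lines the mean and bars the SD of 3 libraries. Abcb4 over Abcb11 is higher and Atp8b1 over Abcb11 lower in each Jag1Ndr/Ndr library, while Abcc3 over Abcc2 overlaps between 0.307 and 0.364.

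The Jag1Ndr/Ndr libraries were not alike. Replicate 1 had the highest CPM of the 6 libraries for Abcb11, Abcb4, Abcc3 and Slc51b and the lowest for Atp8b1 and Abcc2, and replicate 2 had the highest for Abcc4. When replicate 1 was left out, Slc51b went from a log2 fold change of 1.50 to 1.18 and Abcb4 from 1.23 to 1.01, and both stayed past the threshold (edgeR adjusted p = 0.0148 and 0.0113). Replicate 1 was the shallowest library and the only male one of its genotype. It had the highest sum of hepatocyte markers, 282800 CPM against 153900 and 180300 CPM in replicates 2 and 3. Alb and Trf made up most of that sum, and the markers went different ways. Trf, Apoa2 and Fgb were the highest of the 6 libraries in replicate 1 (90260, 8076 and 6090 CPM). Its Alb, Ttr and Serpina1c (150000, 8554 and 744.7 CPM) lay below each Jag1+/+ library, and its Apoa1 and Hnf4a lay within the Jag1+/+ range. Its sums of macrophage markers (2272 CPM) and erythroid markers (672 CPM) were also the highest. Marco, at 945 CPM, was the largest part of that macrophage sum, while the macrophage markers Emr1 and Csf1r were highest in replicate 2. The part of these traits in the transporter values was not tested.

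Genes whose log2 CPM over the 6 libraries differed least from that of a changed member were found among 11565 genes, by the root mean square difference after centring each gene on its own mean. For Abcb4 these were Galns, a lysosomal sulphatase (0.074), Sema6b, a semaphorin (0.088), and Srxn1, which reduces oxidised peroxiredoxin (0.093). For Slc51b they were Gstt2, a glutathione transferase (0.088), Fkbp11, a prolyl isomerase (0.141), and Krt18, a keratin of hepatocytes and duct cells (0.156). Abcg2 lay nearest to Bloc1s6, Cav2 and Sub1 (0.055, 0.056 and 0.064), none of which passed the threshold themselves (edgeR adjusted p = 0.093, 0.14 and 0.062). With 6 libraries in 2 genotypes, this likeness includes the difference between the genotypes.

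Related genes of bile formation were set beside the transporters in 4 lists of 70 genes, of which 66 were tested. Over the lists 1 gene rose and 14 fell, beside 4.73% and 2.9% of all genes, and the median log2 fold change was -0.22. The number of falls was 8 with library totals alone, 6 with sex as a covariate, and 3 with limma on the deposited RPKM, where both the scaling and the test differ. Myo5b, Esr1, Ppara, Acox2, Scp2 and Abca1 lost their calls under each of these, Hsd3b7 and Aqp8 in the deposited RPKM and with sex as a covariate, and Abcg8, Abcc6 and Akr1d1 in the deposited RPKM.

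**Figure D3:**
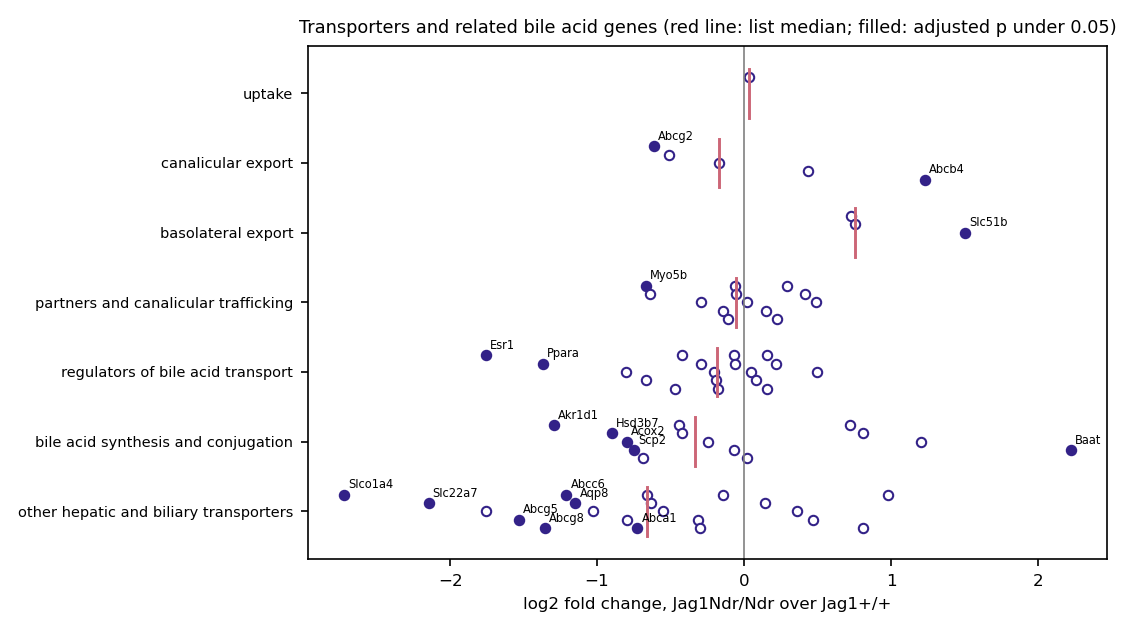
Log2 fold change of Jag1Ndr/Ndr over Jag1+/+ (horizontal axis) for each tested transporter and related gene, by list; filled points passed an edgeR adjusted p of 0.05 and are named, and red lines give list medians. The basolateral genes lie right of 0 with a median of 0.75, while the other hepatic and biliary transporters lie mostly left of it with a median of -0.66.

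Of 13 genes for partners of the transporters and their delivery to the canaliculus, 1 fell and 12 did not pass, and the list median was -0.06. Myo5b, a motor that carries recycling vesicles with bile pumps to the canalicular membrane and whose loss causes cholestasis in people, measured 59.5, 68.4 and 60.5 CPM in Jag1+/+ replicates 1, 2 and 3 and 40.1, 35.9 and 42.8 CPM in Jag1Ndr/Ndr replicates 1, 2 and 3. The genotypes did not overlap, and the log2 fold change was -0.67 ± 0.14 (edgeR adjusted p = 0.0279). Leaving out Jag1+/+ replicate 1, 2 or 3 or Jag1Ndr/Ndr replicate 2 ended the call (edgeR adjusted p = 0.0855, 0.137, 0.109 and 0.0556).

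Of 18 tested regulators of bile acid transport, 2 fell and 16 did not pass, with a median of -0.18. Nr1h4, encoding FXR, measured 78.6, 77.7 and 90.2 CPM in Jag1+/+ replicates 1, 2 and 3 and 45.0, 60.7 and 71.6 CPM in Jag1Ndr/Ndr replicates 1, 2 and 3. Every Jag1Ndr/Ndr library was lower, but the log2 fold change of -0.47 ± 0.19 did not pass (edgeR adjusted p = 0.185). Nr0b2 encodes SHP, a repressor that FXR is known to induce, and measured 30.8, 39.2 and 25.9 CPM in Jag1+/+ replicates 1, 2 and 3 and 74.8, 40.3 and 20.7 CPM in Jag1Ndr/Ndr replicates 1, 2 and 3. Its Jag1Ndr/Ndr libraries spanned the whole range of Jag1+/+ and beyond, and the log2 fold change of 0.50 ± 0.40 (edgeR adjusted p = 0.538) was -0.06 without Jag1Ndr/Ndr replicate 1. The oestrogen receptor gene Esr1 fell 3.38-fold, from 23.3 ± 7.39 to 6.75 ± 2.86 CPM (SD, n = 3 per genotype; edgeR adjusted p = 0.0232). The call for Esr1 was lost without Jag1+/+ replicates 1, 2 and 3 (edgeR adjusted p = 0.0525, 0.0631 and 0.0789). Ppara, a receptor of fatty acids, fell 2.58-fold (edgeR adjusted p = 0.0349). Leaving out Jag1+/+ replicate 1, 2 or 3 or Jag1Ndr/Ndr replicate 3 ended the call for Ppara (edgeR adjusted p = 0.071, 0.103, 0.12 and 0.0734).

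Of 14 genes of bile acid synthesis and conjugation, 1 rose, 4 fell and 9 did not pass, with a median of -0.33. Baat, which joins bile acids to taurine or glycine, measured 19.3, 17.5 and 32.2 CPM in Jag1+/+ replicates 1, 2 and 3 and 130, 57.6 and 136 CPM in Jag1Ndr/Ndr replicates 1, 2 and 3, without overlap. It rose 4.67-fold (log2 fold change 2.22 ± 0.37, edgeR adjusted p = 0.0116), and its call was lost without Jag1+/+ replicate 1 or 2 (edgeR adjusted p = 0.0624 and 0.0565). Akr1d1, a reductase of the sterol ring, fell 2.46-fold, from 367 ± 31.8 to 150 ± 30.7 CPM (SD, n = 3 per genotype; edgeR adjusted p = 0.00925), and passed without each library in turn. Hsd3b7, Acox2 and Scp2, of ring and side chain processing, fell by 0.90, 0.80 and 0.75 on the log2 scale (edgeR adjusted p = 0.0355, 0.0353 and 0.0342). These last calls were lost without Jag1+/+ replicate 1, 2 or 3, with edgeR adjusted p-values between 0.0901 and 0.176, and without Jag1Ndr/Ndr replicate 3 (0.0757, 0.0785 and 0.0597), and those of Hsd3b7 and Acox2 also without Jag1Ndr/Ndr replicate 2 (0.0592 and 0.0637). Cyp7a1, the rate-limiting enzyme of synthesis, varied widely, with 68.0, 32.3 and 66.9 CPM in Jag1+/+ replicates 1, 2 and 3 and 13.0, 28.2 and 62.3 CPM in Jag1Ndr/Ndr replicates 1, 2 and 3, and did not pass (log2 fold change -0.69 ± 0.51, edgeR adjusted p = 0.495).

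Of 21 tested genes of other hepatic and biliary transporters, 7 fell and 14 did not pass, with a median of -0.66. Abcg5 and Abcg8 encode the paired canalicular pump for sterols. Abcg5 measured 185, 134 and 187 CPM in Jag1+/+ replicates 1, 2 and 3 and 58.6, 54.5 and 62.2 CPM in Jag1Ndr/Ndr replicates 1, 2 and 3, and Abcg8 measured between 170 and 197 CPM in the former and between 63.8 and 78.1 CPM in the latter. They fell 2.89-fold and 2.56-fold (edgeR adjusted p = 0.00376 and 0.00365). The basolateral anion carriers Slco1a4 and Slc22a7 fell 6.59-fold and 4.43-fold (edgeR adjusted p = 0.00776 and 0.00554), and Abcc6, a basolateral exporter that releases ATP, fell 2.31-fold (edgeR adjusted p = 0.00722). These 5 calls held without each library in turn. Abca1, an exporter of cholesterol to lipoproteins that was named after its values were seen, fell 1.65-fold (edgeR adjusted p = 0.0479), and leaving out Jag1+/+ replicate 1, 2 or 3 or Jag1Ndr/Ndr replicate 3 ended its call (0.129, 0.154, 0.177 and 0.092). Aqp8, a water channel of the hepatocyte, likewise fell 2.21-fold (edgeR adjusted p = 0.0174) and lost its call without Jag1+/+ replicates 2 and 3 (edgeR adjusted p = 0.0803 and 0.0635). The uptake carrier Slco1b2, which like Slc10a1 takes up bile acids, measured between 505 and 570 CPM in Jag1+/+ and between 240 and 461 CPM in Jag1Ndr/Ndr libraries, without overlap. Its log2 fold change was -0.63 ± 0.25, short of the threshold (edgeR adjusted p = 0.173), though it passed without Jag1Ndr/Ndr replicate 2 (edgeR adjusted p = 0.0406). Slco1b2 was chosen after its values were seen.

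The liver label matched its defining transcript, with Alb taking between 10.3% and 17.3% of reads in each library. The 8 hepatocyte markers summed to between 264800 and 276200 CPM in Jag1+/+ and between 153900 and 282800 CPM in Jag1Ndr/Ndr libraries, with 1 of them past the threshold, lower. The 10 cholangiocyte markers summed to between 95.7 and 139 CPM and between 64.8 and 172 CPM, with 2 of 8 tested past the threshold, both higher. The sums of neutrophil markers (611 to 737 against 1036 to 2301 CPM, 4 of 7 higher) and of macrophage markers (620 to 1100 against 1344 to 2272 CPM, 1 of 7 higher) did not overlap between the genotypes. Taken singly, the neutrophil markers Ngp and Camp overlapped. Of the macrophage markers, Marco, Cd5l and Cd68 did not overlap, while Emr1, Clec4f, Csf1r and Vsig4 did. Endothelial markers (574 to 630 against 554 to 617 CPM) and stellate and fibroblast markers (553 to 601 against 524 to 642 CPM, 1 of 7 lower) overlapped. Of markers of intestine and kidney, where Slc51a, Slc51b and Slc10a2 are abundant, Alpi was at 0 in every library, and the 7 summed to between 81.0 and 97.3 CPM in Jag1+/+ and between 23.6 and 66.4 CPM in Jag1Ndr/Ndr libraries, with 1 of 2 tested past the threshold, higher. The 2 tested went opposite ways. Fabp2, nearly all of the Jag1+/+ sum, went from a mean of 87.0 to 36.5 CPM and did not pass (edgeR adjusted p = 0.113). Vil1 rose from 0.313 to 6.27 CPM (edgeR adjusted p = 0.0298). The part of these cells in the transporter values was not tested.

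**Figure D4:**
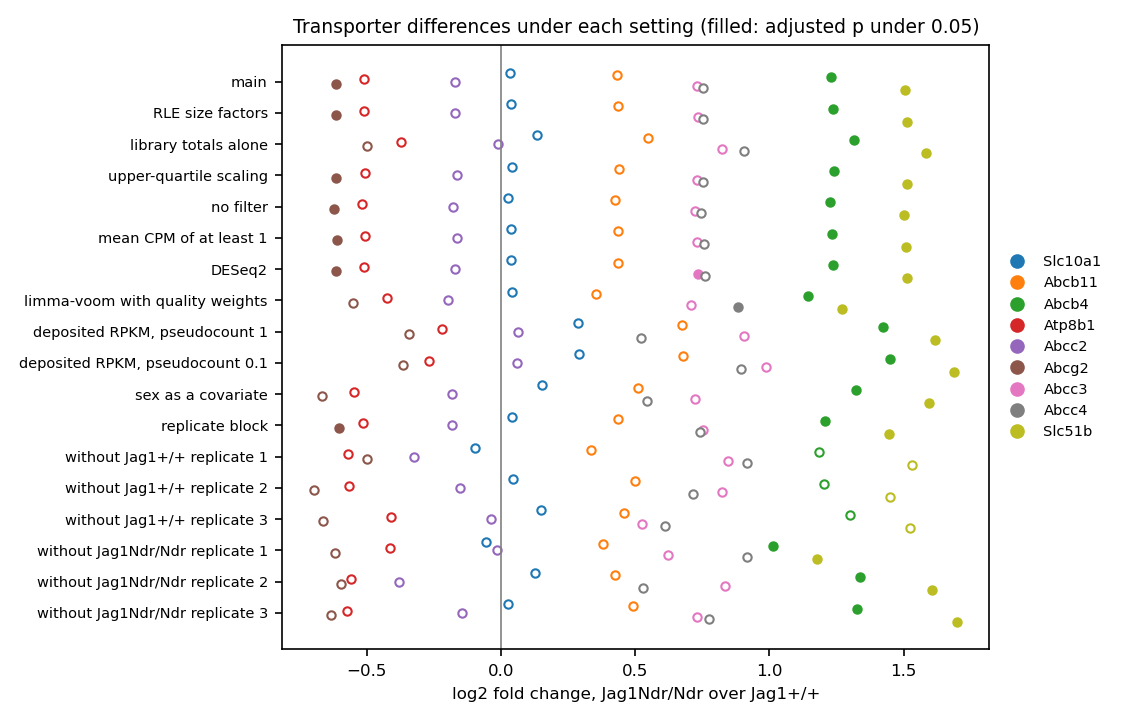
Log2 fold change of each detected transporter (horizontal axis) under the reported setting and 17 others (rows); filled points passed an adjusted p of 0.05. Abcb4 and Slc51b stay between 1.01 and 1.70 throughout and lose their calls without any Jag1+/+ library, and Abcg2 stays below 0 and loses its call under 11 of 17 other settings.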

How the data were processed

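Read counts per gene entry and RPKM were deposited by the authors in 1 table, with 1 column of each per library. The counts are whole numbers without normalization, and the RPKM were multiplied by the authors by a TMM factor per library, per the file headers. STAR and mm10 (GRCm38) are named in the submitters' processing notes, and no source used here names the read counter. The library kit does not mark strand. Besides 24489 gene entries, 93 spike-in and eGFP entries with 5 reads were left out. After filterByExpr, which kept 13819 genes, edgeR's quasi-likelihood test (two-sided) was run on TMM-scaled counts. Tools were R 4.3.3 with edgeR 4.0.16, DESeq2 1.42.0 and limma 3.58.1. The F statistic's root divided into the log2 fold change gave its SE. Because edgeR divides by TMM factors while the deposited RPKM were multiplied by theirs, levels per length used the deposited RPKM divided by those factors and rescaled with TMM. The test was checked on simulated counts. It called 33 of 100 genes planted at 2-fold and 86 of 100 at 4-fold, and 9 of 13619 genes left unchanged. A gene that did not pass may therefore still differ by 2-fold, and less often by 4-fold. Older symbols in the marker lists were matched through RefSeq accessions. Xist and Y-linked reads gave the sexes.

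Named genes are the 10 members, up to 6 genes past the threshold with the smallest adjusted p in each related list, Nr1h4, Nr0b2, Cyp7a1 and Tmem30a, and the 3 genes nearest in pattern to each changed member. Abca1, Slco1b2 and Slc10a2 lie outside this rule and were named after their values were seen. The members, lists and rules were chosen with earlier results of these data known. Alternatives were other scalings, filters and tests, the deposited RPKM, sex as a covariate, a block for the replicate number and leaving out each library.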

Additional observations from a re-analysis of the deposited data

Results flagged for a closer look

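The sexes differed in direction for Abcc2. Both female Jag1Ndr/Ndr libraries lay above the female Jag1+/+ library (a log2 difference of 0.34), while the male Jag1Ndr/Ndr library lay below both male Jag1+/+ libraries (-0.71), so that the differences were 1.05 apart. In a fit with genotype, sex and their interaction, this did not pass (edgeR adjusted p = 0.217). With 1 library in 2 of the 4 arms, sex and the single library cannot be told apart.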

How the results depend on the processing

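Among the genes named here, 6 values reversed in sign: Abcc2 in the deposited RPKM (0.065 and 0.061 with pseudocounts of 1 and 0.1), Nr0b2 with quality weights (-0.18) and without Jag1Ndr/Ndr replicate 1 (-0.061), and Slc10a1 without Jag1+/+ replicate 1 (-0.10) and Jag1Ndr/Ndr replicate 1 (-0.06). Without 1 library Nr0b2 lay between -0.061 and 0.851 and Slc10a1 between -0.097 and 0.149. None of these was past a threshold. Over all genes 653 were higher and 401 lower. The numbers were 1137 and 753 with DESeq2, 388 and 101 for the deposited RPKM at a pseudocount of 1, 427 and 117 at 0.1, and 366 and 230 with sex as a covariate, while 210 were lower with library totals alone and 644 with quality weights. They lay between 155 and 679 and between 127 and 532 when a library was left out. Higher genes were 62.0% of calls, but 74.3% with library totals alone and 79.3% and 78.5% in the deposited RPKM, where the median shift of log2 fold changes was 0.13, 0.21 and 0.22. Among the transporters, between 0 and 2 were higher without 1 library (edgeR; at least 3 at an unadjusted p under 0.05). The number lower was 0 with library totals alone (1 at an unadjusted p under 0.05), quality weights (2), sex as a covariate (2), the deposited RPKM (0 by limma) and without any 1 library (1 or 2, edgeR). Of the related genes, 2 were higher with DESeq2 and 3 with quality weights, and 8, 3, 3 and 6 were lower with library totals alone, the deposited RPKM at both pseudocounts and sex as a covariate. Without 1 library between 0 and 3 were higher and between 6 and 16 lower. The cause was not tested. With a block for the replicate number 843 genes were higher and 587 lower, and 2 transporters were higher and 1 lower as before. Deviations of same-numbered libraries correlated at 0.09, 0.17 and 0.20, and each library correlated best with its own number. The reported fit was unpaired because the labels do not say that a number marks a litter, batch or day. Whether same-numbered libraries share such a source was not tested.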
